A study of Mus musculus with 8 samples.

Results

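The 9 genes described here carry the liver's route to new glucose: *Pcx*, *Pck1*, *Pck2*, *Fbp1* and *G6pc* encode gluconeogenic enzymes, *Slc37a4* the glucose-6-phosphate transporter, *Mpc1* and *Mpc2* the subunits of the mitochondrial pyruvate carrier, and *Ppargc1a* the coactivator PGC-1α. They were chosen by symbol for their place in the pathway, with results of the same comparison already known, and all 9 are among the 16650 genes of the table. The study asked what loss of the lysophosphatidylcholine transporter Mfsd2a from the liver does under overnutrition. Bulk liver RNA was sequenced from 4 *L2aKO* and 4 *2afl/fl* mice. The *L2aKO* mice carried floxed *Mfsd2a* alleles and a Cre driven by the albumin promoter, which acts in hepatocytes. Whether the other liver cells kept the floxed gene was not examined here. The *2afl/fl* mice carried the same floxed alleles without Cre. All 8 mice were 10 weeks old and had been fed a NASH diet, a high-fat diet combined with fructose water, over 2 weeks; a chow-fed group was not analysed here. The study's methods used male mice unless stated otherwise and took livers early in the light phase. The livers were perfused with saline before freezing, and whether the mice had been fasted is not given in the sources used here.

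Gluconeogenesis makes glucose from lactate, alanine and glycerol, chiefly in hepatocytes around the portal vein. Pyruvate enters mitochondria through the MPC1 and MPC2 carrier and is carboxylated to oxaloacetate by pyruvate carboxylase (*Pcx*); phosphoenolpyruvate carboxykinase (*Pck1* in the cytosol, *Pck2* in mitochondria) turns oxaloacetate into phosphoenolpyruvate, fructose-1,6-bisphosphatase (*Fbp1*) bypasses phosphofructokinase, and glucose-6-phosphatase (*G6pc*), fed by the transporter SLC37A4 in the endoplasmic reticulum, releases free glucose. Glucagon and glucocorticoids induce *Pck1* and *G6pc* through CREB, FOXO1, the glucocorticoid receptor and PGC-1α, and insulin represses them.

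The promoters of *Pck1* and *G6pc* are shown because these were the members that passed the criterion given below. That of *Ppargc1a* is shown because PGC-1α is a coactivator of both. Each run is the 150 bases before the annotated start, 5′ to 3′ on the gene's own strand, from RefSeq on GRCm38.p6, and lies at chr2:173152923-173153072 (+) for *Pck1*, chr11:101367566-101367715 (+) for *G6pc* and chr5:51567726-51567875 (-) for *Ppargc1a*. Capitals mark exact matches to the motifs named after the sequences.
Pck1: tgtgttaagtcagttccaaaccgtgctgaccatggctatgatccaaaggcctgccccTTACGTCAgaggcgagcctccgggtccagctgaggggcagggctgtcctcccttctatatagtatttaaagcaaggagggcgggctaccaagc
G6pc: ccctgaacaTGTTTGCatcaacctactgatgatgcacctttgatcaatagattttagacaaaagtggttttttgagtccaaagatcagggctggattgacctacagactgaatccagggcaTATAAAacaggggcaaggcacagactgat
Ppargc1a: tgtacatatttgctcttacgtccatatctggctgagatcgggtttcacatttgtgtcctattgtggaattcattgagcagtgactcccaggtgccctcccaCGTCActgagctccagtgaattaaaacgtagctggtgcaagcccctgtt

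Over the 250 bases before the start, and on either strand, the cyclic AMP response element variant TTACGTCA was found in *Pck1* alone of the 9 members, and in 0.447% of all 32851 promoters of the table. The full palindrome TGACGTCA (1.55% of promoters) was in none of the 9. Its shorter core TGACG (17.8%) was in *Pck1*, where it lies within the TTACGTCA match, in *Slc37a4* and in *Ppargc1a*. *G6pc* held the forkhead motif variant TGTTTGC (4.30%) and the TATA box TATAAA (12.4%), each in no other member. The E-box CACGTG (6.02%) was in *Pcx* only, and the forkhead motif TGTTTAC (3.17%), the glucocorticoid receptor hexamer AGAACA (16.1%) and the nuclear receptor element DR1 (0.0335%) were in none. For each member 1 window was searched, that of the listed promoter nearest the deposited start of the gene. *Pcx* and *Mpc1* had 2 listed promoters each and *Slc37a4* had 3, and their other promoters were not searched. These matches describe letters in the searched windows, not occupied sites.

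Levels of different genes can be set side by side only per length, so the deposited normalized value (read counts scaled by the authors to a common library size with DESeq2) was divided by the length of each gene's longest coding transcript. On that scale, *Fbp1* had the highest mean over the 8 livers, at 15939 per kb, and stood at rank 90 of 16233 genes with a length. *Pck1* followed at 15098 per kb (rank 99), and the ranges of these genes over the 8 livers overlapped. *G6pc* was at 9507 per kb (rank 152) and *Pcx* at 6685 per kb (rank 222), again with overlapping ranges. *Mpc1* at 4115, *Mpc2* at 2454 and *Slc37a4* at 1801 per kb came next, each apart from its neighbours, although the carrier subunits overlapped when the union of all exons was used as the length. *Ppargc1a* (54.6 per kb, rank 9605) and *Pck2* (32.3 per kb, rank 10680) were the least abundant members, so the cytosolic isoform made up nearly all PEPCK mRNA of these livers. *Pcx* on chromosome 19 and *Mpc1* on chromosome 17 each overlap a gene on the other strand, *Lrfn4* and 4930506C21Rik, whose values were 1.43% and 1.37% of theirs; whether counting used strand is not given in the sources used here.

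The targeted gene did not follow the labels. *Mfsd2a* was listed at 915, 721, 1422 and 1974 in the livers labelled *L2aKO*, against 467, 1569, 299.6 and 513 in those labelled *2afl/fl*. It was thus not lower under the *L2aKO* label: the log2 fold change was 1.01 (SE 0.59), and the difference did not pass an exact two-sided permutation test over 70 assignments (p = 0.171, smallest possible 0.0286). Where the deleted part lies within the transcript was not used here, so this value is no check of the protein, and the groups are called by their labels throughout. Every direction given here rests on those labels, and exchanged labels would turn its sign. Sequencing depth, estimated from the step between low values, came to about 2.83e+07 to 3.72e+07 reads in the livers labelled *L2aKO* and 2.75e+07 to 3.02e+07 reads in the *2afl/fl* livers. Hepatocyte markers were present in every liver, and their summed value was 2.50e+06 to 2.78e+06 in livers labelled *L2aKO* against 2.34e+06 to 2.67e+06 in *2afl/fl* livers. In bulk RNA, fewer cells of a type and less RNA per cell cannot be told apart.

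Of the 9 members, 1 was higher and 1 was lower in livers labelled *L2aKO* by the criterion used here, an unadjusted limma p under 0.05 with a log2 fold change of at least 0.32 in size; the limits are those of the study, which applied them to a different test. Over all 16650 genes 2.10% passed it (1.32% higher and 0.781% lower), and no gene passed a Benjamini-Hochberg adjusted p of 0.05 (an unadjusted p under 0.05 was reached by 581 genes, or 3.49%, with limma and by 573, or 3.44%, with limma voom, which also gave 0 after adjustment). Since the members were listed with this comparison known, their differences are given as a description with no test. None of the 9 had groups that did not overlap, a pattern that 2.25% of all genes showed. The median log2 fold change of the 9 was 0.02, against 0.00 over all genes, and 6 of the 9 lay within 0.11 of 0.

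*Pck1* (chr2:173153073-173159274, +), the cytosolic PEPCK, had normalized values of 36168, 50697, 53316 and 42999 in livers labelled *L2aKO*, against 30322, 32771, 43821 and 31316 in *2afl/fl* livers. Every liver labelled *L2aKO* was above 3 of the 4 *2afl/fl* livers, and the *2afl/fl* replicate 3 lay among them. The means were 45795 ± 7769 and 34558 ± 6257 (SD, n = 4 each), and the log2 fold change was 0.41 (SE 0.15). It kept its direction when any 1 liver was left out (0.33 to 0.53), but no longer passed the criterion without *L2aKO* replicate 2 (0.35) or 3 (0.33), or without *2afl/fl* replicate 1 (0.35) or 4 (0.36).

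*Pck2* (chr14:55540266-55550020, +), the mitochondrial isoform, was listed at 110, 132, 117 and 133 in livers labelled *L2aKO*, against 75.5, 59.6, 138 and 112 in *2afl/fl* livers. The livers labelled *L2aKO* were close together, with a coefficient of variation of 9.12%, and fell inside the wide range of the *2afl/fl* livers (36.9%). The log2 fold change of 0.42 (SE 0.23) was of the size of that of *Pck1* but did not pass the criterion, except without *2afl/fl* replicate 3, where it was 0.62.

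*G6pc* (chr11:101367716-101377903, +), the catalytic subunit of glucose-6-phosphatase and the last enzyme of the pathway, was at 17658, 24023, 23149 and 16162 in livers labelled *L2aKO*, against 23182, 26815, 27143 and 25466 in *2afl/fl* livers. Replicates 1, 3 and 4 labelled *L2aKO* were below every *2afl/fl* liver, and replicate 2 was above the lowest of them. The means were 20248 ± 3919 and 25652 ± 1799 (SD, n = 4 each), with a log2 fold change of -0.36 (SE 0.12). Without 1 liver it ranged from -0.45 to -0.26, and it missed the criterion without *L2aKO* replicate 1 (-0.30) or 4 (-0.26). *Slc37a4* (chr9:44396927-44402968, +), which brings glucose-6-phosphate to the enzyme, was at 4584, 4306, 3966 and 3946 in livers labelled *L2aKO*, against 4998, 4586, 3666 and 3720 in *2afl/fl* livers. The transporter thus had overlapping groups, with means of 4201 ± 304 and 4242 ± 657 (SD, n = 4 each) and a log2 fold change of -0.00 (SE 0.10).

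**Figure D1:**
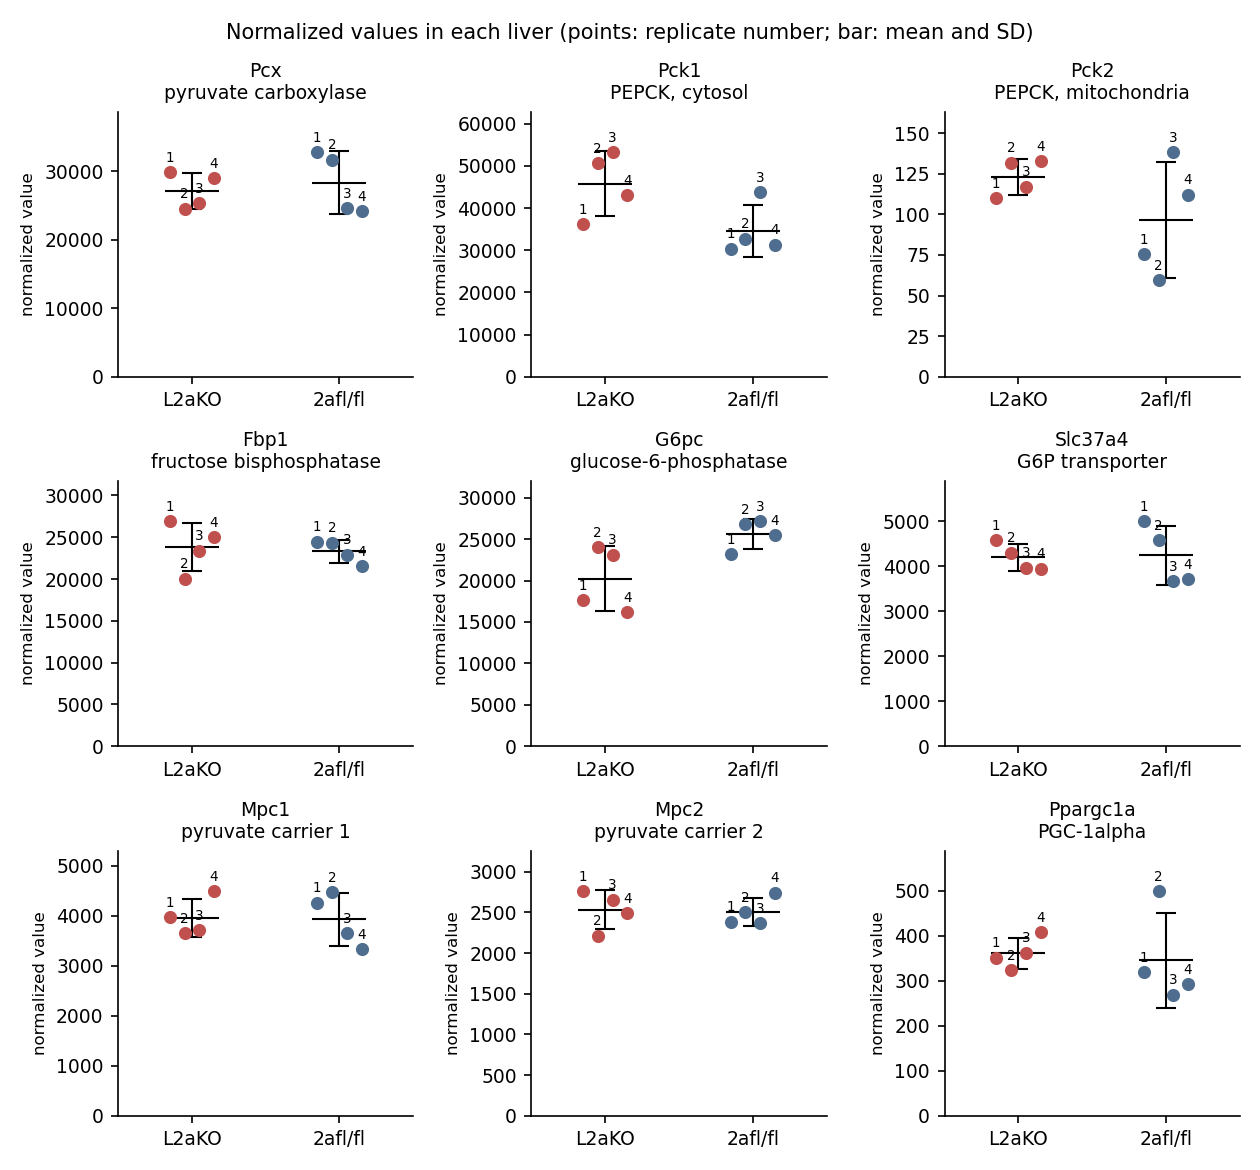
Normalized value of each gene (vertical axes, from 0) in every liver, with livers labelled L2aKO in red on the left and 2afl/fl livers in blue on the right; points are livers with their replicate number, bars the mean and SD (n = 4 each). Pck1 averaged 45795 in L2aKO and 34558 in 2afl/fl livers and G6pc 20248 and 25652, while the groups of all 9 genes overlapped.

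The remaining enzymes did not pass the criterion. *Pcx* (chr19:4510472-4621752, +), which makes oxaloacetate from pyruvate, was at 29859, 24503, 25275 and 28946 in livers labelled *L2aKO*, against 32799, 31694, 24602 and 24153 in *2afl/fl* livers. The *2afl/fl* values took both ends of the range, and the log2 fold change was -0.05 (SE 0.11). *Fbp1* (chr13:62864753-62888282, -) was at 26888, 20021, 23404 and 25028 in livers labelled *L2aKO*, against 24456, 24346, 22919 and 21526 in *2afl/fl* livers. Here the livers labelled *L2aKO* took both ends, with a log2 fold change of 0.03 (SE 0.09).

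The pyruvate carrier subunits were nearly level between genotypes. *Mpc1* (chr17:8283787-8297667, +) was at 3970, 3649, 3709 and 4495 in livers labelled *L2aKO*, against 4260, 4474, 3648 and 3330 in *2afl/fl* livers, a log2 fold change of 0.02 (SE 0.10). *Mpc2* (chr1:165461260-165481218, +) was at 2764, 2212, 2656 and 2494 in livers labelled *L2aKO*, against 2386, 2499, 2371 and 2743 in *2afl/fl* livers, also a log2 fold change of 0.02 (SE 0.08). The ratio of the *Mpc1* to the *Mpc2* value within a liver was 1.57 ± 0.19 in livers labelled *L2aKO* and 1.58 ± 0.27 in *2afl/fl* livers (SD, n = 4 each).

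*Ppargc1a* (chr5:51454249-51567725, -), a coactivator that rises in fasted liver, was at 351, 323, 362 and 407 in livers labelled *L2aKO*, against 319, 499, 269 and 292 in *2afl/fl* livers. *2afl/fl* replicate 2 held the highest value of the 8 livers and the other 3 *2afl/fl* livers the lowest. The log2 fold change was 0.10 (SE 0.17), with a range of -0.00 to 0.30 when 1 liver was left out; the upper end was reached without that replicate, which was also the *2afl/fl* liver with the highest *Mfsd2a* value.

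**Figure D2:**
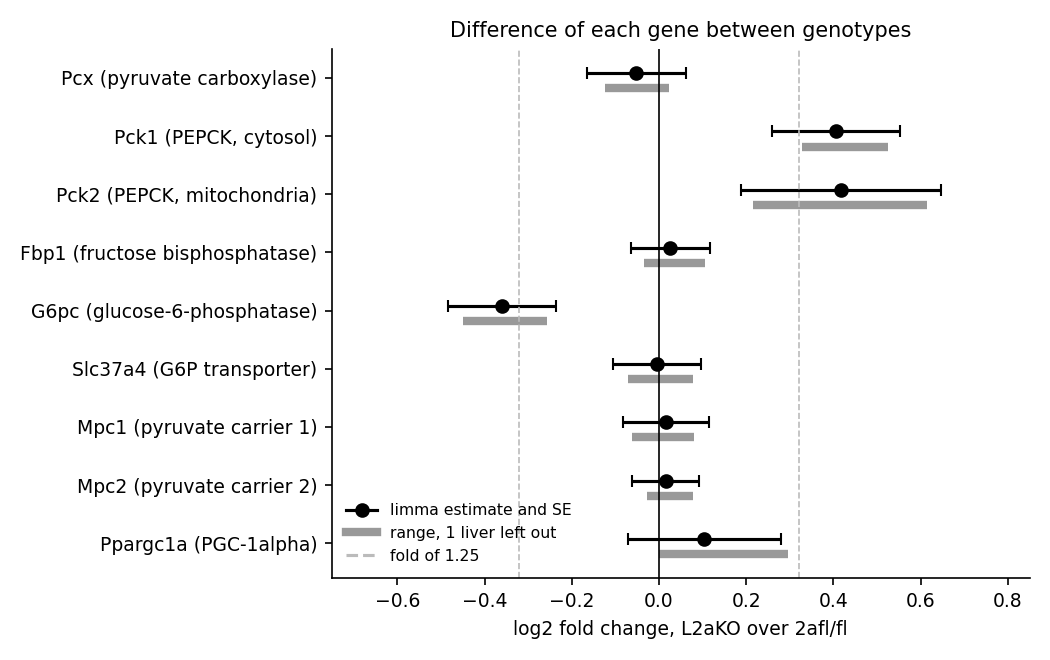
Log2 fold change of each gene, livers labelled L2aKO over 2afl/fl (horizontal axis); points and error bars are the limma estimate and its SE from 4 and 4 livers, gray bars the range when each liver was left out in turn, dashed lines a log2 fold change of 0.32 in either direction. Pck1 at 0.41, Pck2 at 0.42 and G6pc at -0.36 lay beyond the dashed lines and the other 6 genes within them.

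The cytosolic PEPCK and glucose-6-phosphatase genes were also compared as a ratio within each liver. The ratio of the *Pck1* to the *G6pc* normalized value was 2.05, 2.11, 2.30 and 2.66 in livers labelled *L2aKO*, against 1.31, 1.22, 1.61 and 1.23 in *2afl/fl* livers. Every liver labelled *L2aKO* was above every *2afl/fl* liver, with means of 2.28 ± 0.28 and 1.34 ± 0.18 (SD, n = 4 each). Of the 36 ratios between members this was the 1 whose groups did not overlap. The ratio joins the member that passed as higher to the member that passed as lower and so describes the same comparison again. Among single genes 2.25% of all had groups that did not overlap, and no such share was computed over ratios. *G6pc* relative to *Slc37a4* was 4.84 ± 1.01 in livers labelled *L2aKO* and 6.18 ± 1.22 in *2afl/fl* livers, and *Pcx* relative to *Pck1* was 0.614 ± 0.168 and 0.845 ± 0.229 in the same order (SD, n = 4 each), both with overlapping groups.

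**Figure D3:**
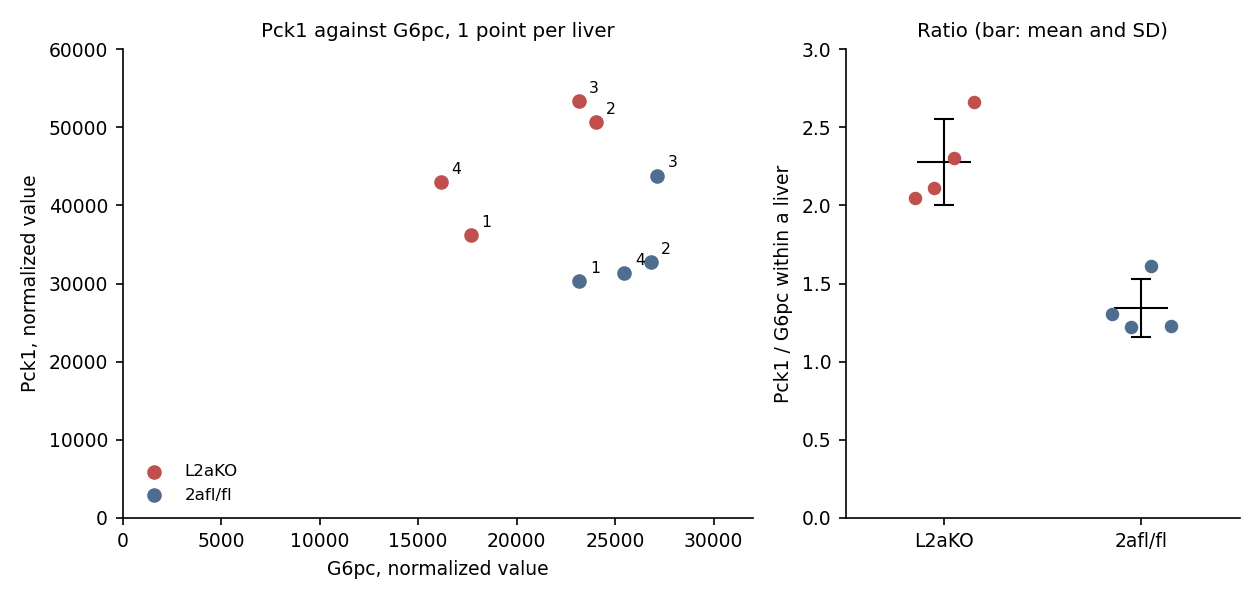
Left, the normalized value of Pck1 (vertical axis) against that of G6pc (horizontal axis), 1 point per liver with its replicate number, L2aKO in red and 2afl/fl in blue; right, the ratio of these values within each liver with the mean and SD (n = 4 each). The ratio was 2.05 to 2.66 in L2aKO livers and 1.22 to 1.61 in 2afl/fl livers.

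How the members varied among livers of the same genotype was not used to choose them and was tested. The choice of this test was still made with earlier results of these data known. Each log2 value was taken less its genotype mean, and all 36 pairs of members were correlated over the 8 livers by an exact permutation within genotypes (every arrangement enumerated, two-sided). In 3 pairs the raw p of Pearson's r was under 0.05, and none held after Benjamini-Hochberg adjustment over the 36 pairs. *Pcx* and *Fbp1* had r = 0.77 (exact p = 0.0052, adjusted 0.188) and rho = 0.74 (exact p = 0.0035, adjusted 0.125), with r = 0.75 without the 2 livers farthest from the *Pcx* median and r of 0.91 and 0.92 within *L2aKO* and *2afl/fl*. *Pcx* and *Mpc1*, the enzyme and the carrier that share pyruvate, had r = 0.89 (exact p = 0.0399, adjusted 0.348) and rho = 0.86 (exact p = 0.0556, adjusted 0.333), with r = 0.88 without the 2 farthest livers. *Mpc1* and *Ppargc1a* had r = 0.76 (exact p = 0.0417, adjusted 0.348) and rho = 0.83 (exact p = 0.0174, adjusted 0.312), with r = 0.57 without the 2 farthest livers. The carrier subunits themselves did not covary detectably, at r = -0.15 (exact p = 0.71) and rho = -0.02 (exact p = 0.983), with r = -0.19 without the 2 farthest livers and adjusted p of 0.775 and 1.

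*Pck1* and *G6pc*, which passed the criterion in opposite directions between genotypes, had a positive r within genotypes that did not pass the test, and deviated the same way in 7 of the 8 livers, the exception being *2afl/fl* replicate 2. Their r was 0.71 (exact p = 0.0851, adjusted 0.348) and rho 0.76 (exact p = 0.0451, adjusted 0.333), with r = 0.74 without the 2 livers farthest from the *Pck1* median and r of 0.81 and 0.69 within *L2aKO* and *2afl/fl*. Replicates 2 and 3 labelled *L2aKO* had the higher values of both genes and replicates 1 and 4 the lower. Among *2afl/fl* livers, replicate 3 was highest in both and replicate 1 lowest in both. *Pcx*, *Fbp1*, *Slc37a4* and *Mpc1* were each higher in *2afl/fl* replicates 1 and 2 than in replicates 3 and 4, and *Pck2* was the reverse. *Pck1* and *Ppargc1a* had r = -0.31 (exact p = 0.483, adjusted 0.668) and rho = -0.17 (exact p = 0.757, adjusted 0.852), with r = 0.05 without the 2 farthest livers.

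**Figure D4:**
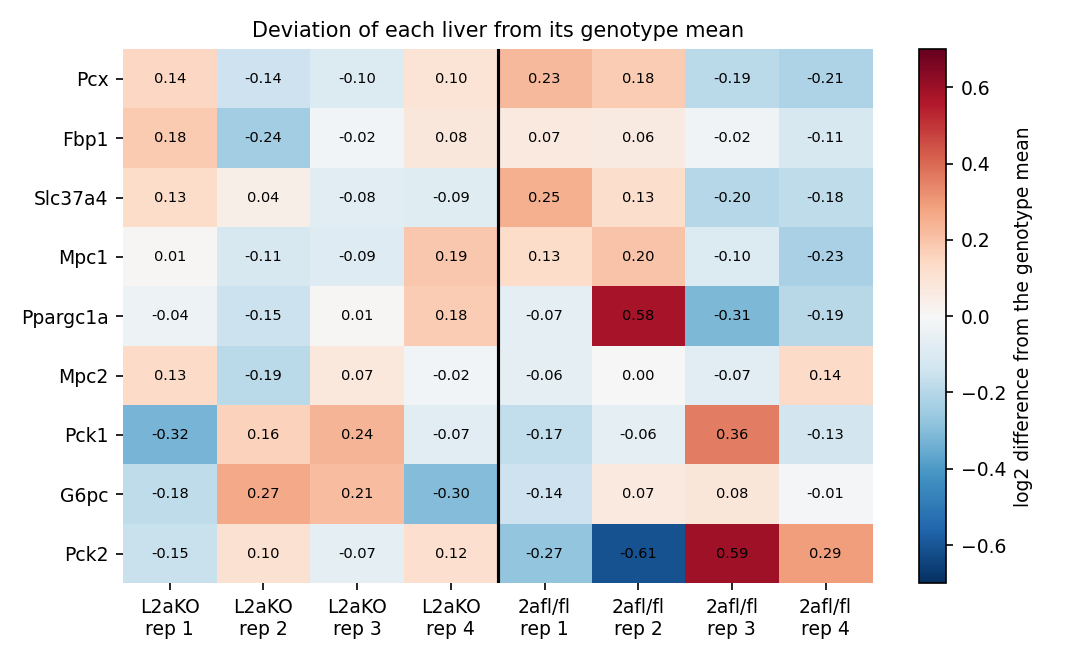
Log2 difference of each liver from the mean of its genotype (color and printed value) for the 9 genes (rows), with the 4 livers labelled L2aKO left of the line and the 4 2afl/fl livers right of it. Pck1 and G6pc were both above their mean in L2aKO replicates 2 and 3 and both below it in 1 and 4, and Pcx, Fbp1, Slc37a4 and Mpc1 were all above it in 2afl/fl replicates 1 and 2.

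The genes whose deviations were most like those of a member were searched among the 14212 genes whose mean value was 10 or more, and are given with Pearson's r over the 8 livers and no test, since so wide a search returns high r. Most like *G6pc* were *Mfsd2b* (r = 0.98), *Herpud1* (0.98), *Slc39a2* (0.98), *Tyr* (0.97) and *Fbxl12os* (0.97). *Herpud1*, which serves protein degradation at the endoplasmic reticulum, was the most abundant of them, at 7494, 9801, 10123 and 7007 in livers labelled *L2aKO* against 6769, 7968, 8219 and 7811 in *2afl/fl* livers. As for *G6pc*, replicates 2 and 3 labelled *L2aKO* were high and 1 and 4 low, but its log2 fold change between genotypes was 0.15 (SE 0.12) and did not pass the criterion. Most like *Pck1* were *Rnf133* (0.97), *Dnajc16* (0.96), *Lilrb4a* (0.96), *Ccdc71l* (0.95) and *Desi1* (0.95), and most like *Ppargc1a* were *Gramd3* (0.99), *Itga3* (0.98), *Ugt1a6b* (0.98), *Cbarp* (0.98) and *Ap5s1* (0.97). None of these 15 genes passed the criterion between genotypes.

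The other genes of the pathway, in 6 lists written by role, held 163 measured genes, of which 3 were higher and 2 lower by the criterion (3.07%, against 2.10% of all genes). Each of the 5 had an adjusted p of 0.9997 with limma, and the median log2 fold change of the 163 was -0.00. None of the 20 genes listed with the reversible and shuttle steps between oxaloacetate and glucose passed. *Fbp2*, *G6pc3* and *Slc2a2*, also on that list, are neither. Of the 20 genes, 15 had a negative and 5 a positive log2 fold change, with a median of -0.03 (50.1% of all genes were positive). *Got1*, the cytosolic aspartate aminotransferase, was at 0.41 (SE 0.34), and passed as higher without *L2aKO* replicate 2 (0.67), and *Fbp2*, the muscle fructose bisphosphatase listed at 0 to 16.3 in these livers, at -0.84 (SE 0.79). None of the 21 measured genes that supply lactate, amino acids and glycerol passed. Glycerol kinase (*Gk*) averaged 4891 ± 352 in livers labelled *L2aKO* and 4217 ± 430 in *2afl/fl* livers, a log2 fold change of 0.22 (SE 0.08). Glycerol-3-phosphate dehydrogenase (*Gpd1*), the next step of glycerol use, averaged 13987 ± 840 and 16595 ± 2085 in the same order, a log2 fold change of -0.24 (SE 0.09); both stayed under the fold limit, *Gpd1* except without *2afl/fl* replicate 4 (-0.32).

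Of the 26 enzymes and regulators of glucose and pyruvate use, 20 had a positive log2 fold change (median 0.08), and none passed. Over all genes 50.1% had a positive log2 fold change. The list joins genes of glycolysis and pyruvate oxidation with genes that hold these back: the pyruvate dehydrogenase kinases *Pdk1*, *Pdk2*, *Pdk3* and *Pdk4*, which spare pyruvate, and *Gckr*, whose product inhibits glucokinase. Of these 5 genes, 4 had a positive log2 fold change, as had 16 of the other 21. Pyruvate kinase M (*Pkm*) was at 497, 484, 478 and 463 in livers labelled *L2aKO*, against 455, 418, 439 and 392 in *2afl/fl* livers. The groups did not overlap, but the log2 fold change of 0.17 (SE 0.07) was under the fold limit. *Pfkfb3*, which makes the allosteric inhibitor of fructose-1,6-bisphosphatase, was at 0.58 (SE 0.35) with overlapping groups, and passed only without *L2aKO* replicate 1 (0.88). None of the 17 genes listed as PGC-1α partners in mitochondria passed (median -0.03), with *Cpt1a* at 0.11 (SE 0.07). That list joins mitochondrial and fatty acid oxidation genes with transcription factors such as *Nrf1* and *Esrra* and the related coactivators *Ppargc1b* and *Pprc1*.

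Of the 47 controllers of gluconeogenic transcription, 1 was higher and 1 lower. *Cebpd*, a C/EBP family factor, was at 131, 143, 154 and 171 in livers labelled *L2aKO*, against 110, 99.8, 121 and 91.0 in *2afl/fl* livers. It rose with no overlap (log2 fold change 0.50, SE 0.13) and passed the criterion with any 1 liver left out. *Tcf7l2*, a Wnt pathway factor described in mouse liver as a repressor of gluconeogenic genes, was at 101, 111, 106 and 118 in livers labelled *L2aKO*, against 124, 123, 150 and 173 in *2afl/fl* livers. It fell with no overlap (-0.37, SE 0.14), and missed the criterion without *2afl/fl* replicate 4 (-0.28). The factors best known at the *Pck1* and *G6pc* promoters were not called: *Creb1* had a log2 fold change of 0.08 (SE 0.06), *Crtc2* 0.03 (SE 0.08), *Foxo1* 0.01 (SE 0.06), *Hnf4a* -0.04 (SE 0.10), the glucocorticoid receptor *Nr3c1* 0.04 (SE 0.06) and *Ppara* 0.05 (SE 0.08). The clock gene *Per1* and *Onecut1*, named after their values were seen, had the list's highest log2 fold changes, 1.05 (SE 0.55) and 1.01 (SE 0.93), with overlapping groups and no call.

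Of the 35 genes of glucagon, insulin and cyclic AMP input, 2 were higher and 1 lower. *Rapgef4*, which encodes the cyclic AMP sensor EPAC2, was at 4671, 4085, 4460 and 3715 in livers labelled *L2aKO*, against 2361, 2487, 3289 and 3425 in *2afl/fl* livers, with no overlap (log2 fold change 0.56, SE 0.13). *Igf1*, the growth hormone dependent hormone with an insulin-like action, averaged 24676 ± 1251 and 19914 ± 3089 in the same order (0.32, SE 0.10), also with no overlap. Its log2 fold change of 0.3221 was barely above the limit of 0.3219. *Pde4a*, a cyclic AMP phosphodiesterase, averaged 237 ± 50.5 and 300.4 ± 45.0 with overlapping groups (-0.35, SE 0.15). *Rapgef4* passed with any 1 liver left out. *Igf1* did not pass without *L2aKO* replicate 2 (0.30) or 4 (0.31) or *2afl/fl* replicate 1 (0.21), and *Pde4a* not without *L2aKO* replicate 1 (-0.33) or 4 (-0.22) or *2afl/fl* replicate 1 (-0.36) or 3 (-0.26).

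**Figure D5:**
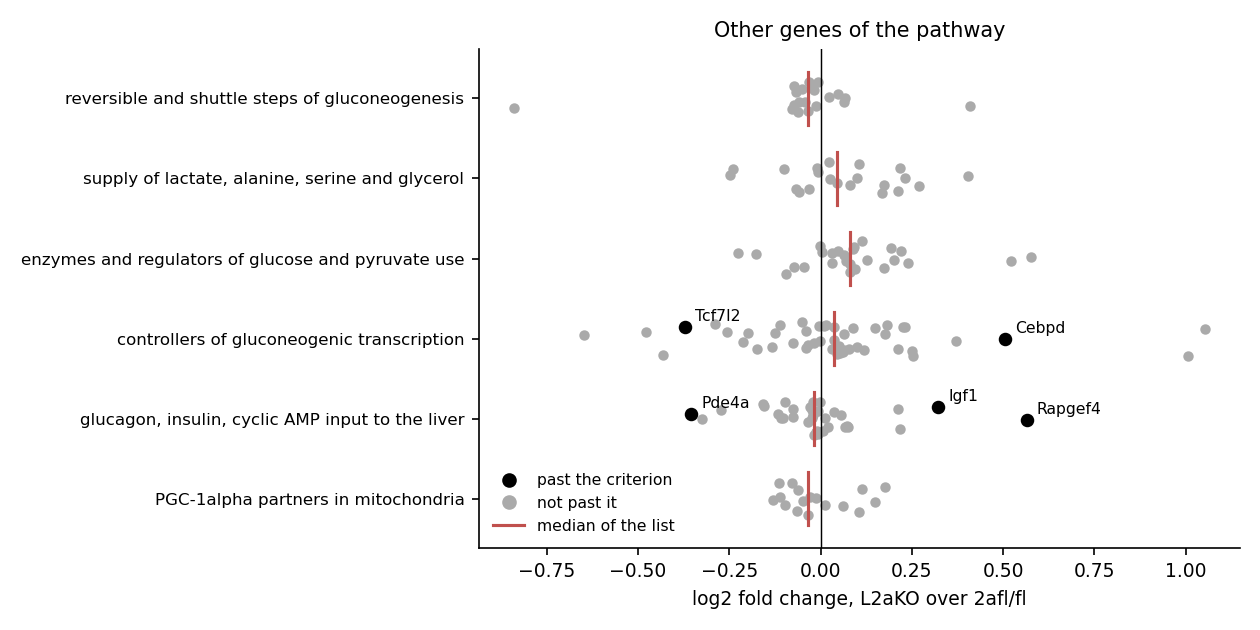
Log2 fold change of each gene, livers labelled L2aKO over 2afl/fl (horizontal axis), in the 6 lists of other pathway genes (rows; vertical scatter within a row only separates points); black points passed the criterion, gray did not, and the red line is the median of the list. The 5 named genes lay at 0.56, 0.50, 0.32, -0.35 and -0.37, and the list medians between -0.03 and 0.08.

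Other cell types and liver zones were read from marker lists beside these values. None of the 12 periportal markers passed the criterion, and their summed value was 260471 to 306990 in livers labelled *L2aKO* against 255189 to 306714 in *2afl/fl* livers. Of the 12 pericentral markers, *Slc1a2* was higher (0.33, SE 0.11) and *Lgr5* lower (-0.38, SE 0.15), with sums of 204859 to 280661 against 212171 to 227190. None of the 12 Kupffer cell and macrophage markers passed, though the log2 fold change was positive for all 12 (and for 50.1% of all genes). Their sums were 10547 to 13087 against 9220 to 11555. Of the 6 red blood cell markers, the globin genes *Hba-a1* (0.59, SE 0.12), *Hba-a2* (0.47, SE 0.11) and *Hbb-bs* (0.53, SE 0.14) were higher in livers labelled *L2aKO*. The globin gene *Hbb-bt* (0.63) did not pass, nor did *Alas2* (-0.10) and *Slc4a1* (-0.02), which were slightly negative. The summed value of the list was 4367 to 5557 against 3780 to 5428. None of the 8 endothelial, 7 bile duct and 4 measured adipocyte markers passed, and *Col1a1* (0.37, SE 0.14) of the 10 stellate and *Ms4a1* (0.88, SE 0.38) of the 7 lymphocyte markers were higher. None of the 6 kidney markers is listed in the table. The part of these cell types, and of the sequencing depth, in the members' values was not tested.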

How the data were processed

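Liver RNA of 8 mice was measured by RNA-Seq. Per the labels and the methods of the study, the authors mapped reads to mm10 with STAR 2.7.8a in Partek Flow (version 10) and normalized with DESeq2. The deposited values are a signal: gene-level reads, in part fractional, scaled to a common library size; the annotation, the counting settings and any gene filter are not given in the sources used here. Of the values under 100 reads, 88.6% to 89.2% per library were whole multiples of a step within 0.02, so they were not taken as whole reads. The deposited Length column (unit other) spans the gene and was not used as a transcript length. Columns of the authors' own comparison (fold changes, p-values) were not used.

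Values were analysed as log2(value + 1) with limma 3.58.1 (R 4.3.3; trend, robust) over the 16650 genes of the table, all with a mean value of 1 or more, with no covariate and Benjamini-Hochberg adjustment. Fold changes are on that scale. With the study's limits, which it applied to a different test, a call needed an unadjusted limma p under 0.05 and a log2 fold change of at least 0.32 in size. The replicates are separate mice. No pair of libraries agreed within sampling noise (chi-square per degree of freedom of at least 24.0). Members, lists and tests were chosen with earlier results of these data known. The genes named were all members, *Mfsd2a*, list genes past the criterion (up to 4 of smallest p in each direction, otherwise 2 as values, of which 1 is not reported here), 6 preset controllers, the first marker of each cell list and the 5 genes most like *Pck1*, *G6pc* and *Ppargc1a*. Of the first markers, *Hba-a1* was higher by the criterion, at a log2 fold change of 0.59 (SE 0.12). The other measured first markers did not pass it. Their log2 fold changes were 0.23 for *Alb*, 0.03 for *Clec4f*, 0.13 for *Glul*, -0.32 for *Cdh1* and 0.06 for *Stab1*. Those of the remaining lists were 0.02 for *Lrat*, -0.08 (SE 0.44) for *Krt7*, 0.45 (SE 0.83) for *Adipoq* and 0.59 (SE 0.30) for *Cd3e*. The last 3 genes had low values, at 5.75 to 25.1 for *Krt7*, 0 to 10.9 for *Adipoq* and 11.5 to 26.2 for *Cd3e*. Transcript lengths came from GENCODE M21 (16233 genes matched) and promoters from RefSeq. Alternatives covered the pseudocount, low-value filter, scaling, fit, replicate block, library weights, fold limit and each liver left out. Scripts were tested on simulated data. Exact tests and counts used Python 3.11.15 with scipy 1.17.1.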

Additional observations from a re-analysis of the deposited data

Results flagged for a closer look

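*Mfsd2a* in *2afl/fl* replicate 2, at a normalized value of 1569, stood far from the other 3 *2afl/fl* livers (299.6 to 513): its gap to the nearest of them was 0.832 of the group's range, above Dixon's 95% critical value for 4 samples. Among the 20 groups of 4 livers tested, covering the 9 members and *Mfsd2a* in each genotype, this was the 1 that passed, and chance passes about 1 in 20. Without this liver the log2 fold change of *Mfsd2a* was 1.49 (SE 0.41) and passed the criterion as higher in livers labelled *L2aKO*, and that of *Ppargc1a* was 0.30.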

How the results depend on the processing

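*Pck1* stayed higher and *G6pc* lower by the criterion under all 10 alternatives of pseudocount, filter, scaling, fit, block and weights (log2 fold change 0.37 to 0.45 and -0.37 to -0.35). Among these, the fit with no filter could not differ from the main fit, since every gene of the table had a mean of 1 or more. Without 1 liver, 0 to 2 members were higher and 0 to 1 lower. A fold limit of 1.5 left 0 members and 0 pathway genes in either direction, and 138 higher and 74 lower genes of the whole table, against 219 and 130 at the limit used here. Restricting the table to means of 10 or more lowered the lower count to 80. Leaving out 1 liver gave 193 to 262 higher and 84 to 191 lower genes, the fewest lower without *2afl/fl* replicate 3, and 2 genes passed an adjusted p of 0.05 (limma) without *2afl/fl* replicate 2. Quantile scaling gave 167 higher and 169 lower. Pathway genes numbered 2 to 9 higher (9 without *L2aKO* replicate 1) and 1 to 3 lower, and 1 was lower without trend and robust fitting and with voom, where *Pde4a* was lost (-0.35 and -0.34); with library weights *Igf1* was lost (0.31). *Mfsd2a* ranged from 0.69 to 1.49. The cause of these changes was not tested. Small differences changed sign without 1 liver: *Fbp1* -0.0352 to 0.107, *Pcx* -0.123 to 0.0238, *Ppargc1a* -0.000489 to 0.296, *Slc37a4* -0.0701 to 0.0789 (0.0209 with library weights), *Mpc1* -0.0608 to 0.0811, *Mpc2* -0.0284 to 0.0788, *Crtc2* -0.0111 to 0.0841, *Foxo1* -0.015 to 0.0509, *Hnf4a* -0.0877 to 0.0296 and *Ppara* -0.0153 to 0.0999. The correlation of *Mpc1* with *Mpc2* ranged from -0.60 to 0.28, and that of *Pcx* with *Fbp1* was 0.46 (exact p = 0.0729) after quantile scaling. The result for *Mpc1* with *Ppargc1a* was weaker in 9 alternatives and the same in 2. That for *Pcx* with *Mpc1* was weaker in 4 and the same in 7. For *Pck1* with *G6pc* it was stronger in 3 and the same in 8. With a mean of at least 100 required, *Dnajc16*, *Herpud1* and *Gramd3* led the genes most like *Pck1*, *G6pc* and *Ppargc1a*. Replicate numbers did not pair the livers (same-number correlations -0.21 to 0.13, own number best in 1 of 4). With the replicate number as a block, 210 genes were higher and 149 lower, and the calls of *Pck1* (0.41, SE 0.09) and *G6pc* (-0.36, SE 0.09) and the counts of pathway genes were as without it. With 4 livers per genotype and no gene past an adjusted p of 0.05, a missed criterion does not show that a gene is the same in both.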
